A study of Mus musculus with 8 samples.

Results

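RNA of whole mouse kidney was compared between Utx knockout mice 3 days after ischemia-reperfusion (I/R) and Utx knockout mice without it, with 2 libraries in each group. All genes whose mean over the 8 libraries of the series was at least 1 FPKM were taken. This left 13304 of the 54965 genes in the table. FPKM are fragments per kilobase of transcript, scaled to a size for each library that was not equal to its reads in genes. Utx, also called Kdm6a, was deleted with a Cre recombinase driven by Pax2 in both groups, so the groups compared are labelled as the same genotype and differ by label in I/R, and 2 wild-type libraries without I/R and 2 with I/R at day 3 completed the series. Poly-A RNA was sequenced from kidney tissue. The protocol names a sham operation, but the labels do not say which animals without I/R received it, and they give no age or sex. No label ties a library to an animal, so p-values measure the spread between these libraries, which may be partly technical.

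UTX removes methyl groups from lysine 27 of histone H3 and works within enzyme complexes that methylate lysine 4 of the same histone. Pax2 is active in the precursors of the nephron and of the collecting duct, so a Pax2-driven Cre acts in tubule and podocyte lineages, while blood, immune, endothelial and most stromal cells keep the gene. Ischemia followed by reperfusion kills or damages proximal tubule cells above all; surviving tubule cells lose specialised transport functions, switch on injury genes such as Havcr1 (KIM-1) and Lcn2 (NGAL) and divide, while macrophages and fibroblasts gather around them.

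Kdm6a was measured at 1.99 and 1.91 FPKM in the knockout libraries, at 1.59 and 1.83 FPKM in the knockout I/R libraries, at 2.57 and 2.94 FPKM in wild type and at 3 and 2.97 FPKM in wild type after I/R. All 4 knockout values lay below all 4 wild-type values, and a whole-gene value in whole kidney holds cells outside the Pax2 lineage and exons outside the deletion. Within the knockout, Kdm6a did not pass the test between I/R and no I/R (difference -0.12 ± 0.10 (SE), adjusted p = 0.415). The Y-linked paralog Uty was at 2.89 and 2.56 FPKM without I/R and at 2.71 and 2.77 FPKM with it. Pax2, whose promoter drives the Cre, was at 13.2 and 10.7 and then 11.1 and 11.8 FPKM. Reads assigned to genes numbered 16780542 to 18497835 per library, of which 3 reads correspond to 0.154 to 0.208 FPKM for a transcript of 1 kilobase. Replicates of the knockout without I/R differed more from each other (median absolute log2 difference 0.156 over genes) than replicates of the knockout after I/R (0.0895). On the first principal component (65.3% of the variance) the knockout I/R libraries lay at 15.8 and 19.2, between the libraries without I/R (-31.2 to -26.6) and wild type after I/R (40.3 and 41.1). Among the libraries without I/R, knockout replicate 1 had the higher summed level of 7 urothelial genes, 13.3 FPKM against 4.56 FPKM in replicate 2 and 1.44 and 1.64 FPKM after I/R. Its values for the collecting duct water channel Aqp2 were also the higher ones, 242 and 143 FPKM in the 2 replicates. The part that the sampled region of the kidney plays in the results was not tested.

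At day 3 after I/R the knockout kidney had more RNA of tubular injury genes, of dividing cells, of matrix and of macrophages, and less RNA of a subset of proximal and distal tubule genes. In limma fits of log2(FPKM + 1) over the 4 groups, 2748 of the 13304 genes (20.7%) had a Benjamini-Hochberg adjusted p under 0.05 and are referred to as called. Of these, 1191 (8.95% of the tested genes) were higher and 1557 (11.7%) lower after I/R. Higher genes moved further: 352 of the 495 called genes that differed at least 2-fold were higher, as were 36 of 56 at 4-fold and 7 of 11 at 8-fold, all on the log2(FPKM + 1) scale, which understates changes of low genes. The balance of directions depends on the scale, since 43.3% of calls were higher as deposited. When each library was scaled to the same sum of FPKM times gene length, that is, of recovered reads (equal sums below), 76.3% were higher. That scaling raised the difference of the median gene by 0.158, from -0.03 to 0.12. The library size behind the deposited FPKM, divided by reads in genes, was 0.857 and 0.899 in the knockout. In the knockout after I/R it was 0.99 and 1.01. The libraries with and without I/R did not overlap in any of the 2748 called genes, nor in 8456 of all genes (63.6%). For 8311 genes (62.5%), the 95% interval of the difference lay within 1.5-fold of no change.

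**Figure D1:**
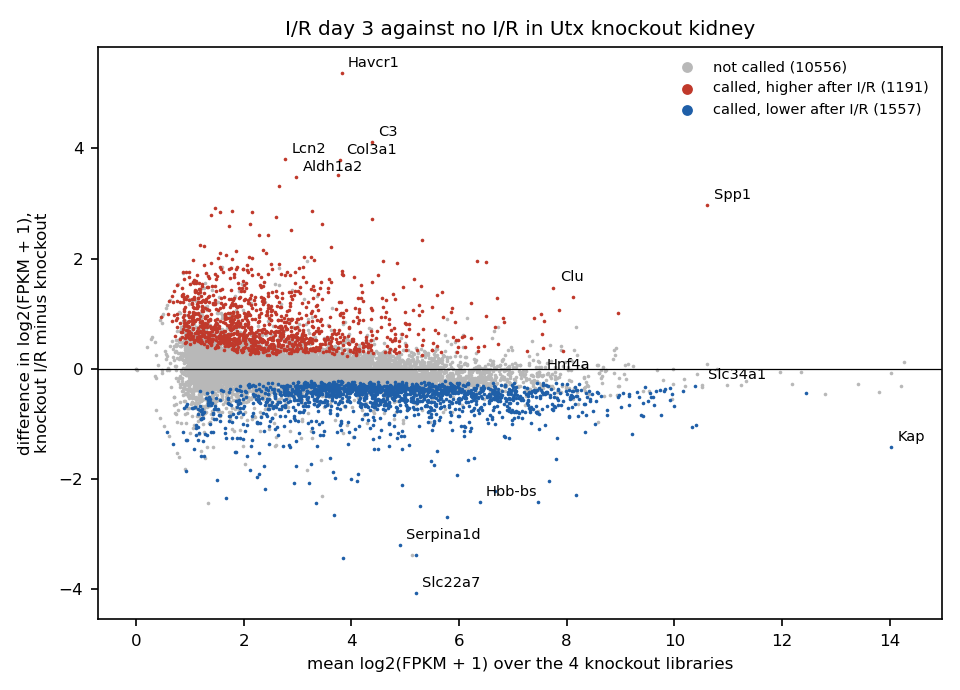
Each point is 1 of the 13304 tested genes, with its mean level over the 4 knockout libraries on the horizontal axis and its difference between knockout I/R and knockout on the vertical axis, both in log2(FPKM + 1). Red and blue points passed an adjusted p under 0.05; the highest point is Havcr1 at 5.37 and the lowest called point Slc22a7 at -4.08, while abundant tubule genes such as Slc34a1 lie near 0.

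Leaving out a single library changed the number of calls widely, from 583 without knockout I/R replicate 2 to 3305 without knockout replicate 2, with 980 without knockout I/R replicate 1 and 1410 without knockout replicate 1. A fit of the 4 knockout libraries alone called 1556 genes, and 1476 of those were among the 2748. Counts within the lists of genes below therefore describe the fit over all 8 libraries, and many of them fall when a knockout I/R library is left out. Each list holds genes of 1 known role or cell type. Its counts cover only the members that passed the filter on low values, which can favour genes that are high in 1 group. List counts are to be read beside the shares over all tested genes, 8.95% higher and 11.7% lower. Values joined by "against" are those of the 2 knockout libraries without I/R and then of the 2 after I/R, differences are on the log2(FPKM + 1) scale with their standard error, and adjusted p-values are from limma over all tested genes.

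Havcr1, which encodes the phosphatidylserine receptor KIM-1 of injured proximal tubule, lies at chr11:46735080-46779578 (GRCm38) and had the largest difference of all tested genes. It was at 1.26 and 1.14 against 90.2 and 89.6 FPKM, a 75.1-fold ratio of means and a difference of 5.37 ± 0.11 (adjusted p = 7.87e-06). Replicates agreed closely within each group. Spp1, the secreted matrix phosphoprotein osteopontin, was already abundant at 563 and 555 FPKM and reached 4219 and 4563 FPKM (2.97 ± 0.11, adjusted p = 0.000103). Lcn2, the iron-carrier-binding lipocalin NGAL, was at 1.16 and 0.535 against 21.4 and 27.9 FPKM (3.80 ± 0.23, adjusted p = 0.00044). Timp1, an inhibitor of metalloproteinases, was at 0.779 and 1.24 against 18.1 and 19.6 FPKM. Krt20, an intermediate filament keratin that is nearly silent in intact tubules, was at 0.144 and 0.0633 against 6.91 and 6.93 FPKM, and its difference of 2.84 ± 0.10 starts from a baseline of only a few reads. None of these 5 genes had overlapping groups, as was so for all 2748 called genes.

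Of the 32 tubular injury markers, 31 passed the filter and 28 of these rose, with a median difference of 1.21 against -0.03 over all tested genes. Among them, the secreted chaperone Clu was at 122 and 136 against 369 and 348 FPKM (1.47 ± 0.12, adjusted p = 0.00114), and the stress cytokine Gdf15 at 5.94 and 5.01 against 17.3 and 16.3 FPKM (1.46 ± 0.13, adjusted p = 0.0014). Anxa3, a calcium-dependent phospholipid-binding annexin, was at 3.97 and 3.08 against 12.7 and 11.7 FPKM. The TWEAK receptor Tnfrsf12a was at 14.5 and 11.6 against 29.9 and 28.1 FPKM, and the galactoside-binding lectin Lgals3 at 17.9 and 15.3 against 34.5 and 35.2 FPKM. All of these rose without overlap between the groups, like every called gene. The simple epithelial keratins moved less than Krt20: Krt18 rose from 11.9 and 10.1 to 17.9 and 20.2 FPKM (0.74 ± 0.13, adjusted p = 0.0108) and its partner Krt8 from 75.9 and 64.4 to 89 and 94.9 FPKM (0.39 ± 0.09, adjusted p = 0.0286). Krt7 stood at 19.4 and 18.6 against 18.9 and 19.3 FPKM, and its 95% interval of -0.20 to 0.21 leaves room for little change in either direction. Cd24a, a surface glycoprotein of immature tubule cells, was at 58.6 and 35 against 63.1 and 66.3 FPKM and did not pass (adjusted p = 0.184), with replicates without I/R far apart.

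Among genes outside that list, Aldh1a2, the retinaldehyde dehydrogenase that makes retinoic acid, was at 1.19 and 1.54 against 22.4 and 28.3 FPKM (3.47 ± 0.18, adjusted p = 0.000263). Serpina10, the protein Z-dependent protease inhibitor, was at 0.336 and 0.209 against 7.89 and 8.55 FPKM. Ugt1a2, a glucuronosyltransferase, was at 0.25 and 1.21 against 14.2 and 8.5 FPKM. The UGT1A genes share their last exons, so how reads were split among them may affect its value. The small proline-rich protein gene Sprr2f was at 0 and 0.1 against 4.93 and 3.13 FPKM, at or near 0 in both libraries without I/R. All 4 genes rose, and the replicates of Ugt1a2 differed several-fold without I/R.

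**Figure D2:**
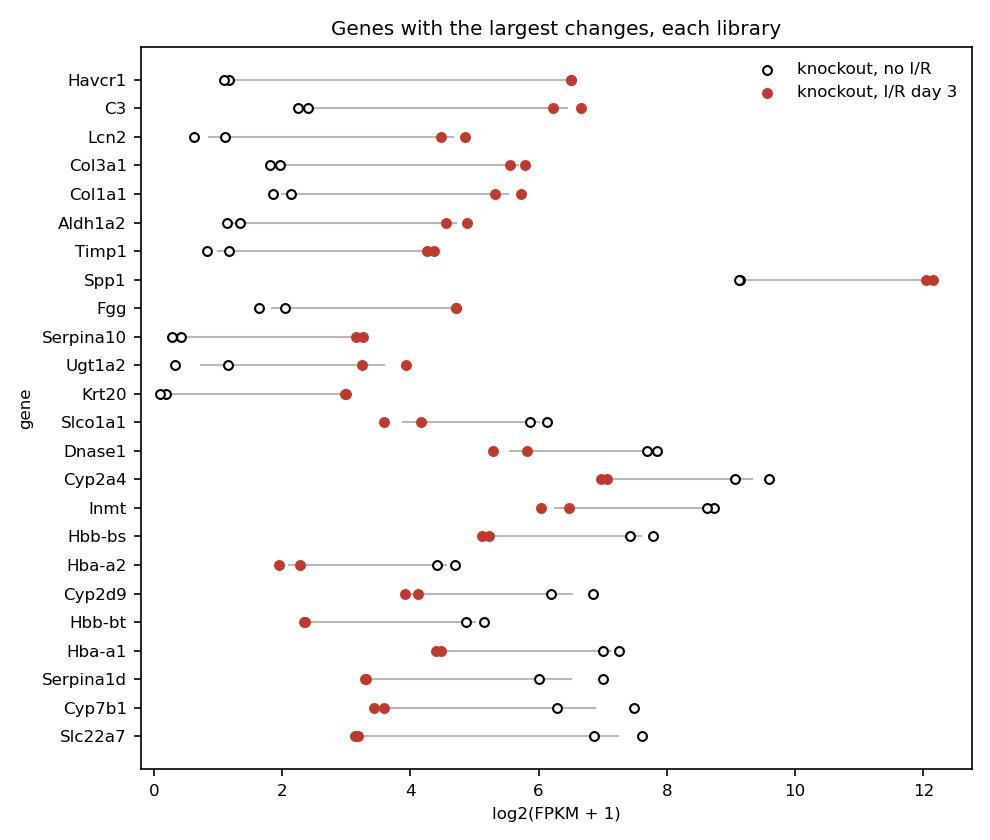
The 12 protein-coding genes that rose most and the 12 that fell most are shown with log2(FPKM + 1) of each library, open circles for knockout without I/R, filled circles for knockout at I/R day 3 and a grey line between the group means. The genes were chosen among called genes whose groups do not overlap, and the differences run from 5.37 (Havcr1) to -4.08 (Slc22a7).

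Genes of mitosis rose together. Of 37 listed genes of the G2 phase and mitosis, 31 passed the filter and all 31 rose, with differences from 0.75 to 2.10 and a median of 1.38; 28 to 31 were called in each alternative fit. Mki67, the proliferation antigen Ki-67, was at 0.323 and 0.522 against 4.49 and 5.7 FPKM (2.10 ± 0.15, adjusted p = 0.000772). Cyclin B2 (Ccnb2), which activates CDK1 for entry into mitosis, was at 1.4 and 1.71 against 9.8 and 10.2 FPKM (2.10 ± 0.11, adjusted p = 0.000263). The mitotic kinase Plk1 was at 0.346 and 0.805 against 4.64 and 6.64 FPKM, topoisomerase II alpha (Top2a) at 0.384 and 0.467 against 4.39 and 5.07 FPKM. The anaphase activator Cdc20 was at 1.78 and 2.06 against 9.16 and 10.8 FPKM. In each of these genes both libraries after I/R exceeded both without it several-fold. The filter on the mean over 8 libraries passes genes that are low without I/R but high after it. The count of 31 of 31 is therefore partly shaped by the filter. With the filter over the knockout libraries 28 genes passed, and all 28 rose. Summed over the 37 listed genes, the level was 18.4 and 19.9 against 104 and 124 FPKM.

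Genes of the G1/S transition and of DNA replication were more mixed, with 17 of 29 tested (36 listed) higher and a median of 0.46. Uhrf1, which maintains DNA methylation at replication, was at 0.617 and 0.845 against 5.01 and 6.8 FPKM (1.99 ± 0.15, adjusted p = 0.000827). The ribonucleotide reductase subunit Rrm2 was at 2.07 and 2.44 against 9.89 and 12.4 FPKM, and the helicase subunits Mcm5 and Mcm3 rose by 1.51 ± 0.13 and 1.44 ± 0.16. Cyclin D1 (Ccnd1), abundant throughout, was at 44.2 and 49.4 against 39.9 and 42.4 FPKM and did not pass (95% interval -0.38 to 0.02), nor did its kinase Cdk4 at 22.6 and 23.3 against 27.2 and 27.4 FPKM. The count of higher genes in this list was 8 without knockout I/R replicate 2 and 11 in the fit of the knockout libraries alone or without knockout replicate 1. Among inhibitors of cyclin-dependent kinases, Cdkn1a (p21) rose from 4.05 and 1.8 to 6.71 and 6.65 FPKM (1.03 ± 0.26, adjusted p = 0.0356) and Cdkn2c (p18) from 8.24 and 8.41 to 11.9 and 11.6 FPKM (0.45 ± 0.06, adjusted p = 0.00597). Cdkn1b (p27) stood at 12.3 and 11.2 against 11 and 11.1 FPKM, within 1.5-fold by its interval of -0.24 to 0.09.

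Promoters of mitotic genes are known to carry CCAAT boxes, bound by NF-Y, and a cell cycle genes homology region (CHR) read by the MuvB complexes. In the 250 bases before the annotated start of RefSeq genes (GRCm38.p6), both strands were searched for CCAAT and for TTTGAA, the core of the CHR. CCAAT was found in 85.2% of the 27 promoters of 25 matched genes of the tested mitotic list, against 34.7% of the 11904 promoters of all matched tested genes, and TTTGAA in 48.1% against 10.5%. CCAAT was also frequent in the G1/S list (66.7% of promoters) and the clock list (61.1%). Both occurred together in 44.4% against 3.82%. The sets are described without a test, and a match to such short letters is no proof of binding. The last 200 bases before the start are shown for Ccnb2, Cdc20, Top2a and Mki67, the listed genes among the most changed in which both letters occur, with matches on either strand in capitals, 5′ to 3′ along the gene.
Ccnb2, chr9:70421555-70421754 (minus strand): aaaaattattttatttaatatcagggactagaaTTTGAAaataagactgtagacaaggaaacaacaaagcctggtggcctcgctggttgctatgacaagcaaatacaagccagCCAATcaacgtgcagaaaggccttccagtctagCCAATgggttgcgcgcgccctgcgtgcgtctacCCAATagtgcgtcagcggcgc
Cdc20, chr4:118437344-118437543 (minus strand): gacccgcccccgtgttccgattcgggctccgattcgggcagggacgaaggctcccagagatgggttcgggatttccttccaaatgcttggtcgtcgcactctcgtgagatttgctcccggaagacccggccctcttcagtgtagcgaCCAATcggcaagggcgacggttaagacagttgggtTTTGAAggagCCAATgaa
Top2a, chr11:99024190-99024389 (minus strand): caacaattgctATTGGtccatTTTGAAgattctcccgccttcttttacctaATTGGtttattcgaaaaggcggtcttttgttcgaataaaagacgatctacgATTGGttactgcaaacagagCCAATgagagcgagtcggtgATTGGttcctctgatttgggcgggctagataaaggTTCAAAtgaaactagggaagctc
Mki67, chr7:135716380-135716579 (minus strand): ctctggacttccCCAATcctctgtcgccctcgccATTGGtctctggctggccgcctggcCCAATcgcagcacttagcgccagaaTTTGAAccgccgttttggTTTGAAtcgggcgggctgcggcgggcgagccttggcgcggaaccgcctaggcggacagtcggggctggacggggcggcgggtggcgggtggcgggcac
Ccnb2 has 3 CCAAT boxes nearer the start and its TTTGAA further upstream, whereas in Cdc20 the TTTGAA lies between the boxes close to the start. Other letters searched in the same windows were TTNGCGC (E2F), GAAA followed after 2 bases by GAAA (the interferon-stimulated response element, ISRE), TGANTCA (AP-1), TTCCNGGAA (STAT), the HNF1 site, CAAAGTCCA (HNF4), CACGTG (E-box) and TTATGNAA (D-box). The E2F letters were in 18.5% of the 27 promoters of the G1/S list and 22.2% of the mitotic list, against 8.64% of tested promoters. AP-1 letters were in 19.4% of the 31 promoters of the injury list and 21.7% of the 23 of the interferon list, against 4.42%, and E-box letters in 27.8% of the 18 promoters of the clock list against 8.40%. STAT letters were in 1.07%, HNF1 in 0.0672%, HNF4 in 0.353% and D-box in 1.84% of tested promoters.

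Matrix genes were among the largest increases. Of 28 listed genes of the extracellular matrix, 27 passed the filter; 22 rose, 1 fell and the median was 1.15. Col3a1, the fibrillar type III collagen, was at 2.9 and 2.49 against 46.1 and 54.4 FPKM (3.79 ± 0.21, adjusted p = 0.000268). Of the type I collagen chains, Col1a1 was at 2.63 and 3.39 against 38.7 and 51.6 FPKM and Col1a2 at 3.23 and 3.63 against 24.2 and 28.4 FPKM. All 3 chains were low without I/R and separated widely after it. Fibronectin (Fn1) was at 1.75 and 2.41 against 14.9 and 18.3 FPKM (2.52 ± 0.17, adjusted p = 0.000638), and the microfibril collagen Col6a3 at 1.04 and 1.42 against 7.15 and 8.91 FPKM. The chains of the mature glomerular basement membrane went the other way or did not pass: Col4a4 fell by 0.37 ± 0.09 from 30.5 and 33 to 24.2 and 24.3 FPKM (adjusted p = 0.0294) and was not called with equal sums, and Col4a3 stood at 24.5 and 28.1 against 21.6 and 24.1 FPKM.

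Fibroblast, pericyte and smooth muscle genes were listed at 26, of which 19 passed the filter, 14 rose and the median was 1.18. The PDGF receptor beta of pericytes and fibroblasts, Pdgfrb, was at 3.45 and 4.21 against 13.7 and 14.9 FPKM (1.67 ± 0.11, adjusted p = 0.000589). Of elastic fiber genes, fibrillin 1 (Fbn1) was at 0.713 and 1.18 against 5.62 and 6.21 FPKM and fibulin 1 (Fbln1) at 1.09 and 0.852 against 5.07 and 5.47 FPKM. These rose about as far as Pdgfrb. Lysyl oxidase (Lox), which cross-links collagen, was at 0.259 and 0.355 against 1.99 and 3.01 FPKM and its relative Loxl2 at 1.1 and 1.66 against 5.11 and 5.5 FPKM. Of the 5 tested genes that did not pass, Myh11, the smooth muscle myosin, was at 3.09 and 4.18 against 2.27 and 2.96 FPKM and Rgs5 of pericytes at 8.17 and 6.36 against 5.93 and 6.48 FPKM. Between 8 and 10 of the list were called without any 1 of the knockout or knockout I/R libraries, and 9 without the filter on low values. In bulk tissue, more cells of a type and more RNA per cell cannot be told apart.

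Of 20 tested matrix proteases and inhibitors (24 listed), 16 rose and 2 fell, with a median of 0.90. Membrane-bound Mmp14 was at 1.03 and 1.18 against 5.7 and 7.2 FPKM (1.82 ± 0.15, adjusted p = 0.00115) and the lysosomal cysteine protease Ctss at 11.1 and 12.1 against 43.9 and 36.1 FPKM. The acute-phase inhibitor Serpina3n was at 0.101 and 0 against 3.62 and 2.66 FPKM, a baseline of 3 reads or fewer. The 2 that fell encode the brush border meprins of proximal tubule: Mep1a was at 661 and 499 against 323 and 313 FPKM and fell by 0.85 ± 0.13 (adjusted p = 0.00774), and Mep1b fell by 1.67 ± 0.23 (adjusted p = 0.00496). Timp3, at 133 and 207 against 152 and 156 FPKM, did not pass. Without knockout I/R replicate 1 or 2, 10 and 8 of the list were called higher.

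The cytoskeletal list rose in part, 21 of 33 genes with a median of 0.83, and 11 without knockout I/R replicate 2. Thymosin beta 10 (Tmsb10), which binds actin monomers, was at 15.4 and 12.5 against 52.1 and 57.9 FPKM (1.91 ± 0.21, adjusted p = 0.00243), and the actin-capping protein Capg at 4.19 and 2.58 against 15.6 and 17.9 FPKM. The tubulins Tubb5 and Tubb2b rose by 1.35 ± 0.14 and 1.22 ± 0.08, and filamin A (Flna) by 1.38 ± 0.18. Cytoplasmic actin Actg1 at 275 and 262 against 319.6 and 320.4 FPKM and ezrin (Ezr) of microvilli at 149 and 164 against 177 and 171 FPKM did not pass.

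**Figure D3:**
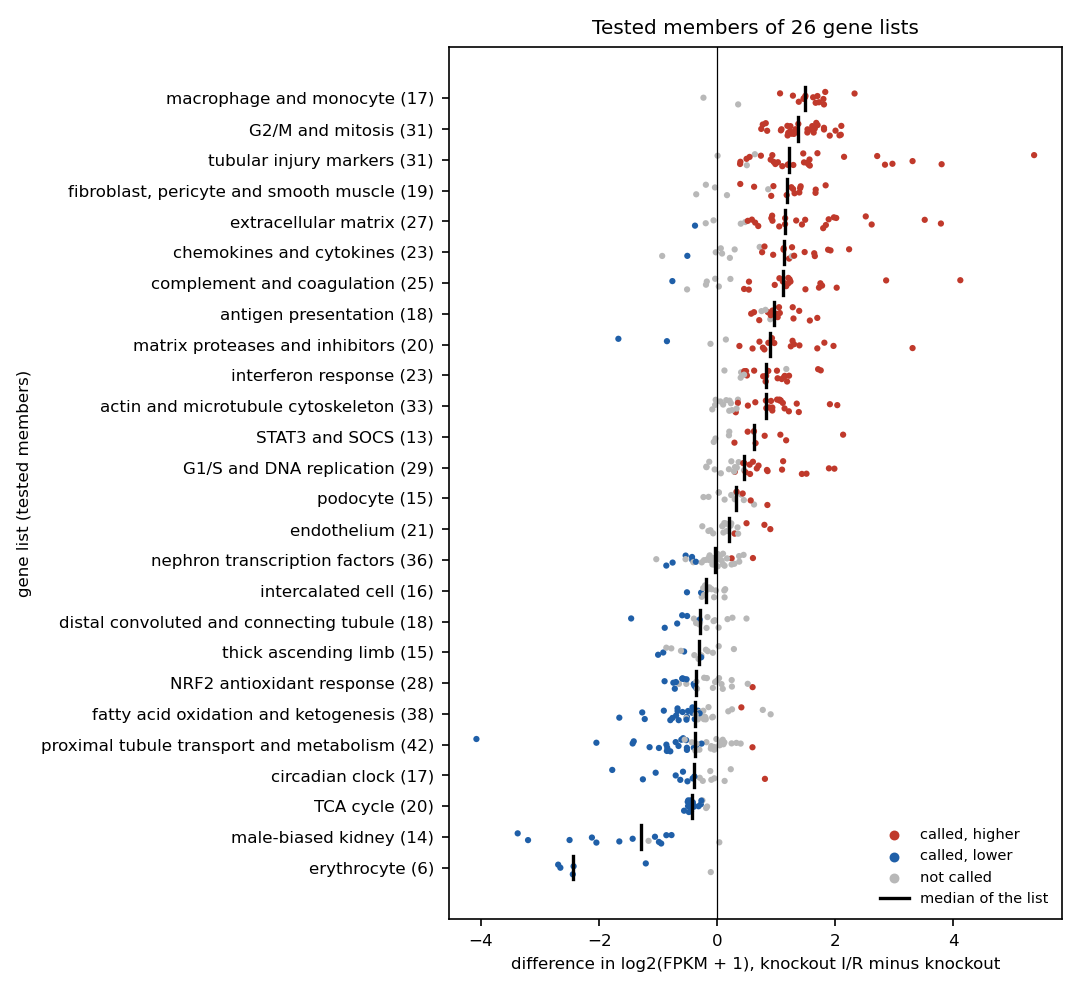
Points are the tested members of the gene lists described in the text, placed at their difference between knockout I/R and knockout in log2(FPKM + 1), and the black bar is the list's median, with the number of tested members in brackets. Lists are sorted by median, from macrophage genes at 1.5 to erythrocyte genes at -2.44; red points are called higher, blue points called lower and grey points not called, and vertical scatter within a row has no meaning.

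Macrophage and monocyte genes had a median of 1.5. Of 28 listed, 17 passed the filter and 15 rose; 13 to 15 were called in every alternative fit. The lysozyme gene Lyz2 was at 17.5 and 15.9 against 93.1 and 82.7 FPKM (2.33 ± 0.46, adjusted p = 0.0159). Cx3cr1, the fractalkine receptor of resident macrophages, was at 1.12 and 1.11 against 5.95 and 6.83 FPKM (1.80 ± 0.09, adjusted p = 0.000263), the mannose receptor Mrc1 at 0.815 and 0.776 against 5.04 and 5.76 FPKM and the lysosomal Cd68 at 1.65 and 2.57 against 9.55 and 10.05 FPKM. Both libraries after I/R lay well above both without it in all 4. Csf1r, the receptor for macrophage colony-stimulating factor, was at 14.8 and 10.5 against 16 and 16.5 FPKM and did not pass. Knockout replicate 1 was the higher of its libraries without I/R. Summed over the 28 genes, the level was 120.8 and 100.6 against 363 and 344 FPKM.

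Other leukocyte lists had few genes past the filter. Of 16 neutrophil genes 4 passed the filter and 1 of these rose, Csf3r, at 0.671 and 0.71 against 1.43 and 1.71 FPKM (0.60 ± 0.14, adjusted p = 0.0247), while S100a9 was at 4.51 and 2.46 against 6.62 and 3.98 FPKM with overlapping groups. Of 21 genes of T and NK cells 3 passed, and Cd8a rose from 0.59 and 0.285 to 1.99 and 2.14 FPKM (1.10 ± 0.16, adjusted p = 0.00574). The T-cell receptor genes Cd3e and Cd3d did not pass the filter, with Cd3e between 0.0505 and 0.686 FPKM over the 8 libraries. Of the 7 tested genes of B and plasma cells, 0 were called by limma over all libraries, by limma-voom or at an unadjusted p under 0.05, while 1 rose with the knockout libraries alone or without either wild-type replicate, and Igkc was at 180.3 and 103 against 186 and 203 FPKM. Irf8, a factor of dendritic and myeloid cells, was at 1.83 and 2.53 against 4.18 and 4.13 FPKM (0.70 ± 0.16, adjusted p = 0.0235).

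Chemokines and cytokines rose in 14 of 23 tested genes (39 listed), with 1 lower and a median of 1.13; 9 were called higher without either knockout I/R replicate. Of the monocyte attractants, Ccl2 was at 0.304 and 0.375 against 4.78 and 3.45 FPKM and Ccl7 at 0 and 0.229 against 5.8 and 3.01 FPKM, and Ccl8 and Ccl12 rose by 1.88 ± 0.44 and 1.65 ± 0.28. Lif, an interleukin-6 family cytokine, was at 0.0795 and 0.14 against 2.72 and 2.28 FPKM (1.66 ± 0.13, adjusted p = 0.00111). The gene that fell was Mif, an abundant tubular cytokine, by 0.50 ± 0.10 from 359 and 324 to 246 and 235 FPKM (adjusted p = 0.0174). Il34, another ligand of CSF1R, stood at 21.4 and 17.2 against 18.3 and 19.4 FPKM, an interval of -0.29 to 0.24.

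Downstream of such cytokines, 8 of 13 tested STAT3 and SOCS genes rose. The feedback inhibitor Socs3 was at 1.05 and 0.464 against 7.17 and 6.1 FPKM (2.13 ± 0.26, adjusted p = 0.00336) and the oncostatin M receptor Osmr at 0.663 and 0.549 against 2.58 and 2.18 FPKM (1.07 ± 0.12, adjusted p = 0.00283). Stat3 itself rose by 0.65 ± 0.09 from 9.36 and 10.2 FPKM (adjusted p = 0.00473). The shared receptor chain Il6st and the kinase Jak2 did not pass, with Jak2 at 8.64 and 8.35 against 8.4 and 8.22 FPKM. Without knockout I/R replicate 1 or 2, 4 of the list were called.

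Complement and coagulation genes rose in 18 of 25 tested (27 listed), with 1 lower and a median of 1.11. The central complement component C3 was at 3.75 and 4.27 against 100.1 and 74 FPKM (4.12 ± 0.75, adjusted p = 0.0124); the error is estimated over all 4 groups, and C3 was 11.2 and 1.86 FPKM in wild type and 197 and 57.1 FPKM in wild type after I/R. C4b was at 4.22 and 3.24 against 20.02 and 16.4 FPKM (2.03 ± 0.20, adjusted p = 0.0019). The 3 fibrinogen chains rose together: Fgg was at 3.14 and 2.1 against 25.1 and 25.1 FPKM, Fga at 8.67 and 5.01 against 24.2 and 26.1 FPKM and Fgb, from a few reads, at 0.0182 and 0.0641 against 2.45 and 2.55 FPKM. The anticoagulant protein C gene Proc, a proximal tubule transcript here at 145 and 112 FPKM, fell to 80.0 and 70.5 FPKM (by 0.76 ± 0.15, adjusted p = 0.0161).

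Antigen presentation genes rose in 15 of 18 tested, median 0.97, and interferon response genes in 17 of 23, median 0.83. The class II chaperone H2-DMa was at 6.58 and 5.65 against 21.5 and 18.8 FPKM (1.57 ± 0.19, adjusted p = 0.00333), Cd74 at 182 and 170.4 against 468 and 400.3 FPKM and H2-Ab1 at 67.2 and 64.7 against 186 and 140.5 FPKM. H2-Aa at 41.9 and 36.7 against 85.7 and 64.1 FPKM and H2-Eb1 at 83.9 and 76.3 against 145 and 127 FPKM did not pass although the groups did not overlap. In all 5 genes knockout I/R replicate 1 was the highest library of the knockout. The guanylate-binding proteins were at 2.86 and 3.64 against 16.3 and 10.8 FPKM (Gbp2) and 2.82 and 2.34 against 12.8 and 8.92 FPKM (Gbp3). Ifit3, a tetratricopeptide antiviral protein, was at 10.03 and 6.16 against 22.5 and 17.2 FPKM (1.22 ± 0.22, adjusted p = 0.0119) and Ifit1 at 2.27 and 1.06 against 5.25 and 4.27 FPKM. Isg15 at 6.5 and 4.92 against 15.3 and 7.5 FPKM did not pass. Here too knockout I/R replicate 1 was the higher of its group in each named gene. Without knockout replicate 1, 6 antigen presentation and 8 interferon genes were called, and without knockout I/R replicate 1, 5 and 3. Without the filter on low values 6 antigen presentation genes were called, and without knockout I/R replicate 2 the counts were 7 and 10.

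The ISRE letters, GAAA and GAAA separated by any 2 bases, occurred in 9 of 23 promoters (39.1%) of the 19 matched tested interferon genes and in 2.57% of the promoters of all matched tested genes, within 250 bases before the start on either strand. Ifit1, Ifit3 and Gbp2 are shown as examples of called genes of the list that hold a match, as Gbp3 also does, in capitals (on the printed strand TTTC and TTTC with 2 bases between them).
Ifit1, chr19:34640689-34640888 (plus strand): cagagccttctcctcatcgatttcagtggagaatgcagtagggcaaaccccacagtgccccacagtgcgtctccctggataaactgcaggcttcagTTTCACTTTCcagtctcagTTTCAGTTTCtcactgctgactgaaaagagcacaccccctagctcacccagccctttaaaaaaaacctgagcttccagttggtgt
Ifit3, chr19:34583329-34583528 (plus strand): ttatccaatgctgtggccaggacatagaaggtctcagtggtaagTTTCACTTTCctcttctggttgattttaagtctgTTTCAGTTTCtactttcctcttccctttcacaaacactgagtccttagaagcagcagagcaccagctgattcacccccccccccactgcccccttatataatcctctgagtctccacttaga
Gbp2, chr3:142620463-142620662 (plus strand): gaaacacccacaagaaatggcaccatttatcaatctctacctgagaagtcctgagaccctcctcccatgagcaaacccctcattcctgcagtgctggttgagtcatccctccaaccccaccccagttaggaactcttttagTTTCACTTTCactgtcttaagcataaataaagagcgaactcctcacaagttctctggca
Ifit1 and Ifit3 each carry 2 matches a short distance apart, and Gbp2 carries 1.

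Proximal tubule genes split. Of 42 listed and tested, 20 fell, 1 rose and the median was -0.38 (-0.20 with equal sums, where 14 were called lower); 12 were called lower in the fit of the knockout libraries alone, 11 with no filter on low values, and 7 and 5 without knockout I/R replicates 1 and 2. Slc22a7, the organic anion transporter OAT2, lies at chr17:46432183-46438457 (GRCm38) and fell by 4.08 ± 0.29 (adjusted p = 0.000772), from 195 and 116 to 8.12 and 7.8 FPKM. The aspartate and glutamate transporter Slc7a13 of the late segment was at 495 and 348 against 103 and 96.9 FPKM and fell by 2.05 ± 0.24 (adjusted p = 0.00316). Kap, the kidney androgen-regulated protein, was the most abundant of them at 34077 and 22286 FPKM and fell to 10983 and 9509.9 FPKM. The nicotinate and urate exchanger Slc22a13 and the aspartic protease Napsa fell by 1.41 ± 0.29 and 1.14 ± 0.28, with knockout replicate 1 the higher library without I/R in both. The gene that rose was the sulfate transporter Slc13a1, at 50.8 and 58.4 against 79.7 and 86.4 FPKM (0.60 ± 0.11, adjusted p = 0.0129). By contrast the phosphate transporter Slc34a1 was at 1469 and 1804 against 1368 and 1277 FPKM (95% interval -0.60 to 0.00, adjusted p = 0.143), and inositol oxygenase (Miox) at 1302 and 1542 against 1405 and 1246 FPKM (interval -0.41 to 0.21).

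Genes known to be higher in male than in female mouse kidney fell. Of 14 such genes, all tested, 12 were called lower, with a median of -1.30 that lay between -1.69 and -1.06 in the alternative fits. Xist was at most 0.02 FPKM and Ddx3y between 8.95 and 11.6 FPKM in all 8 libraries, so no library differed from the others by these sex markers. Cyp7b1, an oxysterol hydroxylase, was at 179 and 76.9 against 9.78 and 11 FPKM and fell by 3.38 ± 0.36 (adjusted p = 0.00243). Serpina1d, of the alpha-1-antitrypsin family, fell by 3.20 ± 0.31 from 127 and 63 to 8.78 and 8.86 FPKM. Cyp2d9, a steroid-hydroxylating cytochrome P450, was at 114 and 72.3 against 16.4 and 14.1 FPKM and the organic anion transporter Slco1a1 at 68.8 and 57.6 against 17 and 11 FPKM. Knockout replicate 1 was above replicate 2 in all 4 genes, by a wide margin in Cyp7b1 and Serpina1d. Cyp2d9 and Serpina1d have near-identical relatives among which reads may be split. Hsd3b4 stood at 17.6 and 12.7 against 16.5 and 14.3 FPKM and Cyp4a12a at 28.9 and 14.3 against 8.58 and 8.53 FPKM (adjusted p = 0.0923). Of 4 genes higher in females, Cyp4a14, a fatty acid hydroxylase, rose from 43.9 and 36.2 to 149 and 168 FPKM (1.96 ± 0.38, adjusted p = 0.0153), and the amino acid transporter Slc7a12 was at 5.64 and 5.4 against 15.6 and 15.1 FPKM without passing (adjusted p = 0.0565). Among the other large decreases, the methyltransferase Inmt was at 426 and 393 against 87.4 and 64.3 FPKM, the steroid hydroxylase Cyp2a4 at 772 and 531 against 133 and 125 FPKM and the urinary nuclease Dnase1 at 229 and 206 against 55.6 and 37.9 FPKM.

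Genes of oxidative metabolism were modestly lower. Of 38 genes of fatty acid oxidation and ketogenesis, 19 fell and 1 rose, with a median of -0.37. The gene that rose was the acyl-CoA synthetase Acsl1, by 0.41 ± 0.11 (adjusted p = 0.0443). In this list 11 and 7 were called lower without knockout I/R replicates 1 and 2. Acadm, the medium-chain acyl-CoA dehydrogenase, was at 397 and 305 against 146 and 142 FPKM and fell by 1.27 ± 0.12 (adjusted p = 0.00171). The mitochondrial acyl-CoA synthetase Acsm3 fell by 1.66 ± 0.21 and the ketone body enzyme Bdh1 by 1.23 ± 0.17, while the peroxisomal thiolase Acaa1b stood at 231 and 238 against 195 and 216 FPKM. In the tricarboxylic acid cycle 17 of 20 genes fell, in a narrow range with a median of -0.43. Idh3b was at 115 and 109 against 79.9 and 78.3 FPKM (-0.50 ± 0.07, adjusted p = 0.00627) and Dld at 122 and 108 against 79 and 76.4 FPKM (-0.56 ± 0.10, adjusted p = 0.0107). The count depended on the fit: 8 were called with equal sums or with the knockout libraries alone, 11 without either wild-type replicate, 10 without the filter or without knockout replicate 1, 4 without knockout I/R replicate 1 and 0 without replicate 2. Of 13 mitochondrially encoded genes 2 fell (15.4%), near the 11.7% of all genes that fell. They were mt-Co2, from 1079.8 and 1244 to 661 and 633 FPKM, and mt-Nd4, by 0.45 ± 0.13. Neither was called with equal sums. Mitochondrial genes took 8.51% and 8.10% of reads in the 2 libraries without I/R, against 7.56% and 7.38% with it.

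Glycolytic genes did not move the opposite way. Aldoa, Tpi1, Pgk1, Eno1 and Gpi1 fell by 0.27 to 0.41 and the lactate carrier Slc16a1 rose from 5.97 and 5.67 to 10.9 and 11.6 FPKM; of the 5 lower calls among 18 tested genes, 0 were called with equal sums. Ldha stood at 255 and 208 against 213 and 209 FPKM (interval -0.38 to 0.12). In NAD synthesis from tryptophan, 7 of 16 tested genes fell, with Haao at 181 and 168 against 106 and 96.2 FPKM (-0.78 ± 0.10, adjusted p = 0.00362) and Aadat at 141 and 82.5 against 52.8 and 48.6 FPKM (-1.08 ± 0.22, adjusted p = 0.0182), while Nnmt, which consumes nicotinamide, rose from 0.571 and 0.31 to 1.87 and 1.25 FPKM. Without knockout I/R replicates 1 and 2, 4 and 3 genes of this list fell. Targets of NRF2 fell in 12 of 28 tested (median -0.35), in 7 with equal sums, without the filter or without knockout replicate 1, and in 4 to 6 without either knockout I/R replicate or with the knockout libraries alone. NADPH-making malic enzyme Me1 was at 210.5 and 181 against 103 and 107 FPKM and the quinone reductase Nqo1 at 51 and 43.4 against 24.7 and 31.2 FPKM, whereas heme oxygenase Hmox1 rose from 25.8 and 24.5 to 36.2 and 41.4 FPKM (0.60 ± 0.11, adjusted p = 0.0134). Cholesterol synthesis fell in 5 of 22 genes (22.7%, against 11.7% of all genes), and in 3 with equal sums or with the knockout libraries alone. The median of this list was -0.01, and 0.04 without knockout I/R replicate 2. Idi1 fell most among the called genes, at 21.5 and 16.2 against 9.18 and 8.29 FPKM.

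Serine and one-carbon genes moved in both directions, 5 higher and 2 lower of 19 tested; without knockout I/R replicate 1 the counts were 1 and 1, and without replicate 2 they were 0 and 1. The 5 and 2 were 26.3% and 10.5% of the tested list, against 8.95% higher and 11.7% lower among all genes. Phgdh, the first enzyme of serine synthesis, rose from 5.01 and 4.61 to 7.47 and 9.23 FPKM (0.68 ± 0.13, adjusted p = 0.0136). Mitochondrial Shmt2 fell by 0.76 ± 0.08 from 105 and 107 to 64.6 and 59.8 FPKM (adjusted p = 0.00237). Among chaperones and stress proteins of the endoplasmic reticulum 8 of 27 fell and 2 rose; 3 fell without knockout replicate 1 or knockout I/R replicate 1, and 0 without knockout I/R replicate 2. The 2 that rose were the small heat shock protein Hspb1, at 14.8 and 8.41 against 33.7 and 36.5 FPKM, and the collagen chaperone Serpinh1, at 38 and 35.1 against 63.8 and 78.7 FPKM. The endoplasmic reticulum stress gene Herpud1 fell by 0.98 ± 0.19 and the mitochondrial chaperonins Hspd1 and Hspe1 by 0.66 ± 0.10 and 0.62 ± 0.10. Of 16 tested hypoxia genes, Ndrg1 rose from 158 and 159 to 342 and 327 FPKM (1.07 ± 0.11, adjusted p = 0.00185) and Ak4 fell by 0.93 ± 0.11 from 174 and 175 to 94.2 and 88.1 FPKM (adjusted p = 0.00281). Iron handling was led by Lcn2 and by ceruloplasmin (Cp), at 5.15 and 3.29 against 14.8 and 13.7 FPKM, while ferritin light chain Ftl1 was at 1119 and 1054 against 841 and 871 FPKM and fell by 0.34 ± 0.09 (adjusted p = 0.0377). Of 26 tested genes of ribosome biogenesis, 22 lay within 1.5-fold by their intervals, as 62.5% of all genes did.

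In the fit over all 8 libraries, a smaller share of distal nephron genes was called lower than the 47.6% of the proximal tubule list. It was 26.7% in the thick ascending limb and 33.3% in the distal convoluted and connecting tubule, against 11.7% of all genes. This order did not hold in every fit. Without knockout replicate 1 the distal convoluted and connecting tubule list had a larger share than the proximal list. Without knockout replicate 2 the thick ascending limb list did. In the thick ascending limb, 4 of 15 tested genes fell, and between 1 and 8 when any 1 library was left out. Egf, the epidermal growth factor precursor made there and in the distal convoluted tubule, was at 181 and 173 against 92.9 and 83.4 FPKM and fell by 1.00 ± 0.10 (adjusted p = 0.00185). The potassium channel Kcnj1 (ROMK) fell by 0.56 ± 0.12 from 80.6 and 76.7 to 49.3 and 57 FPKM. Uromodulin (Umod) at 1579 and 1080.4 against 1039 and 1061 FPKM and the cotransporter Slc12a1 at 287 and 183 against 128 and 139 FPKM did not pass (adjusted p = 0.324 and 0.0571), and knockout replicate 1 was the highest knockout library for both. In the distal convoluted and connecting tubule 6 of 18 fell (4 with equal sums, where 2 rose, and between 1 and 8 when any 1 library was left out). The calcium-binding proteins of these cells led: parvalbumin (Pvalb) was at 35 and 37.3 against 14.6 and 10.7 FPKM (-1.46 ± 0.15, adjusted p = 0.0019), calbindin (Calb1) at 169 and 203 against 104 and 95.8 FPKM (-0.89 ± 0.16, adjusted p = 0.0116) and the smaller calbindin S100g at 1372 and 1221 against 883 and 743 FPKM (-0.68 ± 0.11, adjusted p = 0.009). The thiazide-sensitive cotransporter Slc12a3 was at 142 and 231 against 169.9 and 178 FPKM, with the 2 libraries without I/R on either side of those after it.

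In principal cells, Aqp3, the basolateral water channel, was at 87.6 and 65.3 against 42.9 and 41 FPKM and fell by 0.83 ± 0.13 (adjusted p = 0.00779), the matrix protein Npnt rose from 26.6 and 31.7 to 43.9 and 47.6 FPKM (0.64 ± 0.10, adjusted p = 0.00831), and Aqp2 after I/R, at 121 and 114 FPKM, did not pass (adjusted p = 0.0884). Of intercalated cell genes 2 of 16 tested fell (0 with equal sums, where 1 rose), near the 11.7% of all genes, and 13 lay within 1.5-fold by their intervals, against 62.5% of all genes. The proton pump subunit Atp6v0a4 was at 62.8 and 70.2 against 61.6 and 59.6 FPKM and carbonic anhydrase Car2 at 195 and 203 against 224 and 213 FPKM. Podocyte genes rose in 4 of 15 tested (26.7%, against 8.95% of all genes). Among them was the transcription factor Tcf21, at 5.77 and 5.17 against 9.16 and 8.05 FPKM (0.57 ± 0.09, adjusted p = 0.00904). The slit diaphragm protein Kirrel was at 1.2 and 1.34 against 2.91 and 3.29 FPKM (0.85 ± 0.11, adjusted p = 0.0041). Podxl at 26.3 and 41 against 41.8 and 39.6 FPKM did not pass. The podocyte count was 2 without either knockout I/R replicate and 8 without knockout replicate 2. Endothelial genes rose in 4 of 21, in 10 with equal sums and in 1 without knockout I/R replicate 2. The 4 endothelial genes were 19.05% of those tested, against 8.95% higher among all genes. They were led by the adhesion molecule Icam1, at 5.08 and 4.69 against 10.4 and 9.62 FPKM (0.90 ± 0.11, adjusted p = 0.00367). Other activated cells also make Icam1. The plasminogen activator Plat rose by 0.80 ± 0.15. The junction cadherin Cdh5 rose by 0.50 ± 0.10 (adjusted p = 0.0151) and Plvap stood at 60.1 and 49.8 against 66.2 and 68.4 FPKM.

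**Figure D4:**
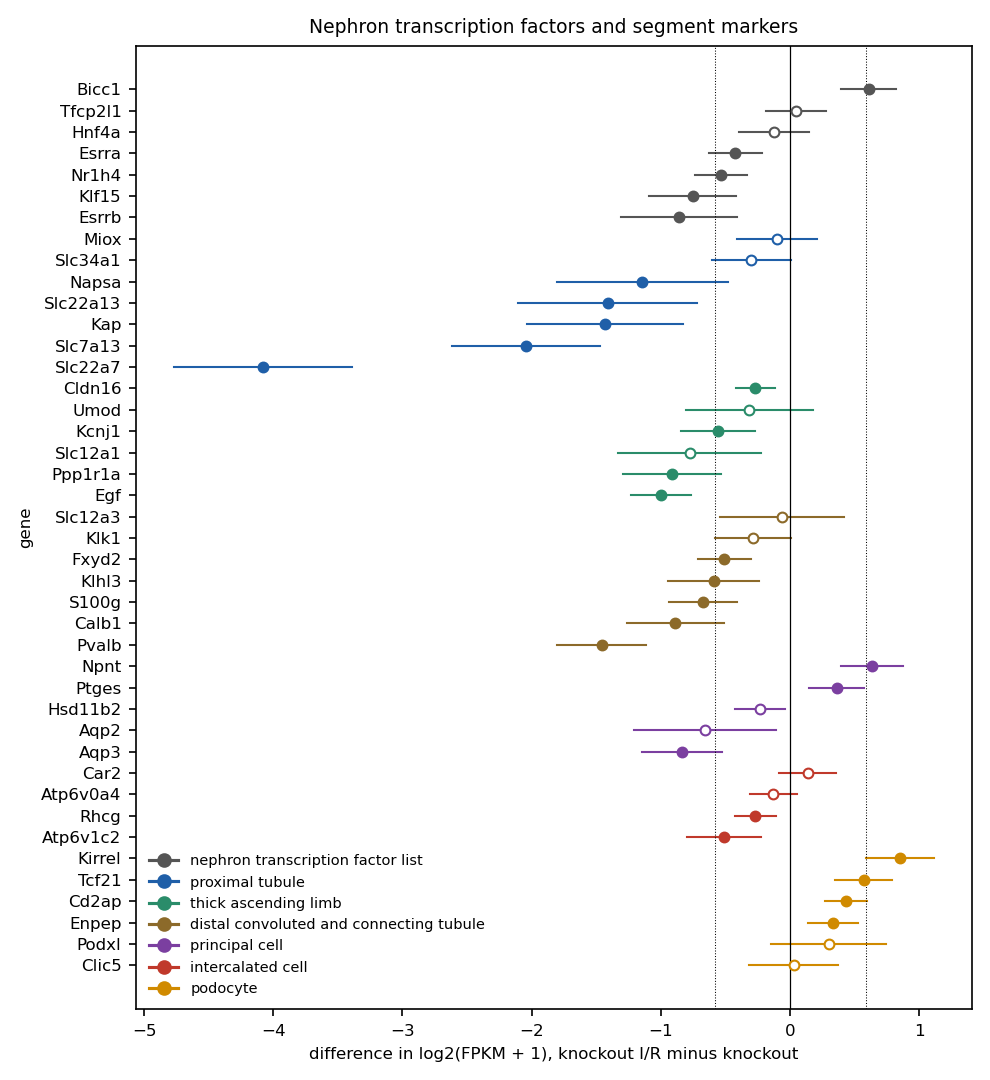
Differences between knockout I/R and knockout in log2(FPKM + 1) are drawn with their 95% intervals for the named genes of the nephron transcription factor, tubule segment and podocyte lists, coloured by list. Filled points were called and open points were not; the dotted lines mark 1.5-fold in either direction, and Slc22a7 lies far to the left at -4.08 while Slc12a3 and Hnf4a have intervals across 0.

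Of 36 tested transcription factors of the nephron, 6 fell and 2 rose, a share of 22.2% near the 20.7% of all genes. The median was -0.04, and 23 lay within 1.5-fold by their intervals, close to the 62.5% of all genes. Hnf4a, the regulator of proximal tubule maturation, was at 178 and 200.2 against 177 and 169.7 FPKM (interval -0.39 to 0.15) and Tfcp2l1 of the collecting duct at 46.9 and 55.8 against 51.6 and 54.4 FPKM (interval -0.18 to 0.28). Among called genes the nuclear receptor Esrrb fell by 0.86 ± 0.19 from 9.25 and 6.27 to 3.67 and 3.83 FPKM (adjusted p = 0.0225) and the metabolic regulator Klf15 by 0.75 ± 0.14 from 66.1 and 52.5 to 37.8 and 31.6 FPKM (adjusted p = 0.0134). The bile acid receptor Nr1h4 was at 100.2 and 88 against 65.4 and 63.8 FPKM and the estrogen-related receptor Esrra, a regulator of mitochondrial genes, at 97.9 and 93.8 against 73.3 and 69 FPKM; both fell, by 0.53 ± 0.08 and 0.43 ± 0.09. Bicc1, an RNA-binding protein of the tubule, rose by 0.61 ± 0.09 (adjusted p = 0.00635). The other riser was Cebpa, by 0.25 ± 0.07. With equal sums the split was 5 higher and 3 lower, and the number that fell was between 0 and 9 when any 1 library was left out. Among 20 tested genes of UTX, its complexes and PRC2, Ezh2, the H3K27 methyltransferase of dividing cells, rose from 0.808 and 1.08 to 2.09 and 1.82 FPKM (0.60 ± 0.13, adjusted p = 0.0189) and Kmt2a by 0.53 ± 0.13 (adjusted p = 0.0298); neither was called without knockout replicate 1, and 16 lay within 1.5-fold, against 62.5% of all genes.

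Of stress-responsive factors 9 of 24 tested rose and 1 fell, and 5 rose without either knockout I/R replicate. Atf3 was at 1.25 and 0.482 against 4.55 and 3.52 FPKM (1.45 ± 0.21, adjusted p = 0.00599), Myc at 0.662 and 0.921 against 2.73 and 3.31 FPKM (1.17 ± 0.11, adjusted p = 0.0017) and Klf6 at 9.75 and 7.89 against 18.7 and 18.4 FPKM (1.00 ± 0.10, adjusted p = 0.00189). The phosphatase gene Dusp1, an early response gene, fell by 1.40 ± 0.31 to 19.7 and 19.9 FPKM from 79.2 and 36.4 FPKM (adjusted p = 0.022), with the 2 libraries without I/R far apart. Genes of TGF-beta and its relatives rose in 10 of 29 tested (17 with equal sums, 2 without knockout I/R replicate 2), with Tgfb1 at 2.69 and 2.46 against 5.27 and 5.67 FPKM (0.86 ± 0.13, adjusted p = 0.00704) and the secreted Tgfbi at 3.52 and 2.9 against 9.3 and 9.03 FPKM, while Ctgf, at 21.7 and 19.3 against 18.3 and 17.2 FPKM, did not pass. Targets of p53 changed in 4 of 21, near the 20.7% of all genes, and in 1 or 2 without knockout replicate 1 or either knockout I/R replicate, with Phlda3 rising by 0.88 ± 0.11 (adjusted p = 0.0041) and Ccng1 at 74.2 and 72.5 against 69.7 and 71.2 FPKM. In cell death 9 of 22 rose and 1 fell, and 3 and 1 rose without knockout I/R replicates 1 and 2. The necroptosis kinase Ripk3 was at 0.332 and 0.373 against 1.33 and 1.69 FPKM. Its effector Mlkl was at 0.871 and 0.768 against 1.94 and 2.44 FPKM. The pore-forming Gsdmd was at 2.33 and 2.13 against 4.65 and 4.32 FPKM, and the glutathione peroxidase Gpx4 fell by 0.50 ± 0.12 (adjusted p = 0.0307). Of 21 tested Notch and Wnt genes 5 rose and 0 fell, and 4 rose with the knockout libraries alone. The Notch target Heyl and receptor Notch3 of mural cells rose by 0.89 ± 0.13 and 0.66 ± 0.12. Among growth factors Pdgfb rose by 0.76 ± 0.13 (adjusted p = 0.00939), and Klotho (Kl), an FGF23 co-receptor of distal tubule, was at 115 and 149 against 82.7 and 79.6 FPKM and fell by 0.68 ± 0.12 (adjusted p = 0.0113). The renin and mineral list moved in both directions, with 3 higher and 5 lower of 18 tested genes. With equal sums the counts were 5 higher and 2 lower, and with the knockout libraries alone 1 and 2. Of its lower genes, Cyp27b1, which activates vitamin D, fell from 9.46 and 13.3 to 4.64 and 4.19 FPKM and Ace fell by 0.76 ± 0.10.

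Clock genes fell in 9 of 17 tested, with 1 higher and a median of -0.38, and 5 were lower with equal sums or without knockout I/R replicate 1, and 4 without replicate 2. Ciart, a repressor of the clock, was at 14.3 and 12.7 against 3.91 and 2.63 FPKM and fell by 1.78 ± 0.15 (adjusted p = 0.00123). The output factor Dbp was at 39.4 and 48 against 18.9 and 16.4 FPKM and fell by 1.26 ± 0.12 (adjusted p = 0.00166). Tef was at 66.6 and 60.8 against 40.2 and 37.3 FPKM, and the repressor Nfil3, which competes with Dbp and Tef, rose from 2.15 and 2.02 to 4.25 and 4.57 FPKM (0.81 ± 0.13, adjusted p = 0.00758). The labels give no hour of collection, so time of day and I/R cannot be told apart. Erythrocyte transcripts fell in 5 of 6 tested genes, with a median of -2.44: Hbb-bs was at 219 and 171 against 36.4 and 33.6 FPKM and Hba-a1 at 152 and 127 against 20.1 and 21.2 FPKM, and the heme synthesis gene Alas2 fell by 1.21 ± 0.24 (adjusted p = 0.0154). The paired globin genes share most of their sequence, so their separate values are uncertain. Of 5 tested liver genes, Apoa2 and Apob fell by 0.89 ± 0.13 and 0.32 ± 0.07. Of 3 tested urothelial genes, 0 were called by limma over all libraries or by limma-voom, but 2 fell with the replicate block and 1 without knockout replicate 2, and all 3 had an unadjusted p under 0.05, with Upk1a at 4.72 and 1.93 against 0.359 and 0.711 FPKM.

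The change after I/R was also compared with that in wild-type kidney, as the difference of the 2 differences. Of the 13304 genes, 38 (0.286%) were called, 28 with a lower and 10 with a higher value in the knockout, and 2308 had an unadjusted p under 0.05. Of the 28, 24 rose in the knockout, each with a smaller difference than in wild type, and the other 4 were not called in the knockout. The count depended on the fit: 0 were called by limma with the replicate number as a block or without wild type replicate 1, knockout replicate 1, wild type I/R replicate 2 or knockout I/R replicate 1 (with 1497 to 2181 genes at an unadjusted p under 0.05), 1 without wild type I/R replicate 1 or knockout I/R replicate 2, 6 without wild type replicate 2 and 206 without knockout replicate 2. Pseudocount 0.1 called 14, and limma-voom 175, of which 28 were among the 38.

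The lower group held injury genes. Havcr1 was at 1.07 and 0.749 FPKM in wild type and at 241 and 204 FPKM after I/R, so its rise of 5.37 in the knockout compared with 6.87 in wild type, a difference of -1.50 ± 0.16 (adjusted p = 0.0327). Krt18 was at 8.81 and 8.48 FPKM in wild type and 51.7 and 65 FPKM after I/R (-1.87 ± 0.18, adjusted p = 0.0302). Krt20 was at 26.3 and 22.3 FPKM in wild type after I/R, several times its level in the knockout after I/R (-1.68 ± 0.14, adjusted p = 0.0268). Sprr2f differed most, with 24.8 and 18.3 FPKM in wild type after I/R (-2.24 ± 0.29, adjusted p = 0.0487). Il34 was at 18 and 16.4 FPKM in wild type and rose to 44.2 and 40.7 FPKM, whereas the knockout difference was -0.02 (-1.28 ± 0.16, adjusted p = 0.045). Cldn4, a tight junction claudin, Phgdh and Clu differed by -1.51 ± 0.16, -1.49 ± 0.18 and -1.48 ± 0.17. Myc, the growth-promoting transcription factor, was at 1.57 and 1.68 FPKM in wild type without I/R and reached 13.5 and 13.2 FPKM in wild type after I/R (-1.28 ± 0.16, adjusted p = 0.045).

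Of the 10 genes in the higher group, 4 fell in the knockout, 4 were not called there and 2 rose. The distal tubule genes Egf, Pvalb and S100g were among those that fell, less than in wild type. Egf was at 189 and 166 FPKM in wild type and at 23.7 and 21.6 FPKM after I/R, a difference in change of 1.92 ± 0.14 (adjusted p = 0.0261). Pvalb fell in wild type from 30.01 and 30.3 to 2.88 and 2.28 FPKM (1.67 ± 0.21, adjusted p = 0.045) and S100g from 1093 and 1051 to 223 and 226 FPKM (1.57 ± 0.16, adjusted p = 0.0312). Slc26a4 (pendrin) of intercalated cells was at 26.6 and 29.5 against 23.7 and 23.9 FPKM in the knockout and at 32.5 and 36.9 and then 10.4 and 11.5 FPKM in wild type (1.35 ± 0.13, adjusted p = 0.0302). The proton pump Atp4a and the transporter Abca13 differed by 1.30 ± 0.11 and 1.57 ± 0.15. Cd8a, with 2.52 and 2.99 FPKM in wild type without I/R and 0.871 and 1.22 FPKM after it, fell by 0.88 in wild type and rose in the knockout (1.98 ± 0.22, adjusted p = 0.0419).

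**Figure D5:**
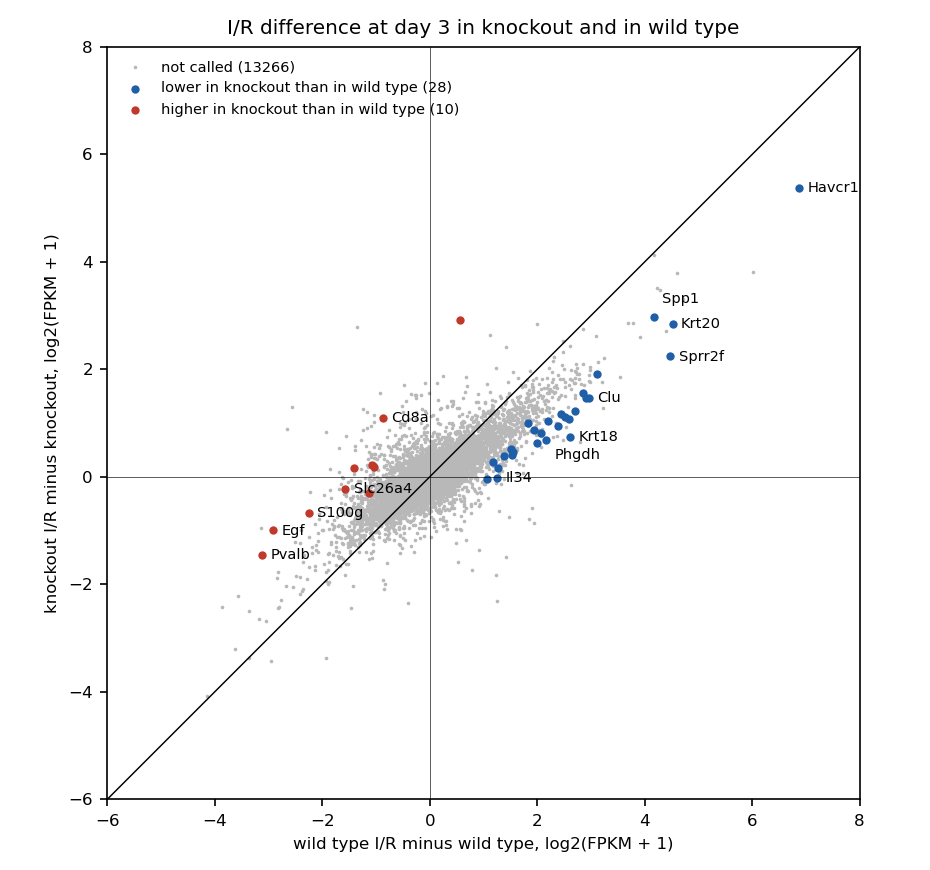
Each point is a tested gene, with its I/R difference in wild type on the horizontal axis and in knockout on the vertical axis, both in log2(FPKM + 1); the diagonal marks equal differences. Blue points (28) were called lower and red points (10) higher in the knockout, with Havcr1 at 6.87 in wild type and 5.37 in the knockout and Egf at -2.92 in wild type.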

How the data were processed

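Whole-kidney poly-A RNA was sequenced from 8 libraries, 2 each of wild type and Utx knockout with and without I/R at day 3; per the labels' protocols, RNA was extracted with Trizol and mRNA purified on poly-T beads. The deposited table holds FPKM values per gene that the authors made from reads counted with featureCounts 1.5.0-p3, and names GRCm39 and DESeq2 1.20.0, per the submitters' processing notes. The coordinates in the deposited table were GRCm38: 53585 of 54495 matched gene IDs had the same position in that annotation. No source used here names the aligner.

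Whole reads could be recovered from the deposited FPKM for 100% of values (tolerance 0.05 reads), 16780542 to 18497835 reads per library. Their counting error only is covered by the 3-read level. The 13304 genes averaging 1 FPKM or more were fitted with limma 3.58.1 (R 4.3.3; trend, 4 groups, log2 of FPKM plus 1, Benjamini-Hochberg adjustment). Counts were simulated for these genes with the same added spread for every gene and group. There the fit recovered 82 of 100 simulated 2-fold changes and 95 of 100 simulated 4-fold changes, with 9 calls among the rest. In the data the spread differed between groups (median absolute log2 difference 0.156 in knockout and 0.0895 in knockout I/R). The simulated numbers therefore need not hold for the data. The comparison with wild type was the interaction in the same fit. Alternatives were a pseudocount of 0.1, no filter, equal-sum scaling, limma-voom on recovered reads, a replicate block, the knockout libraries alone, each library left out and, added after seeing the data, the filter over the knockout libraries.

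The comparison and the gene lists were chosen with earlier results of these data known. Genes are named by a rule: the 12 largest called non-overlapping protein-coding differences each way, up to 5 called genes with the largest difference and up to 2 abundant genes not called or against the majority in each list, and the 8 largest interactions each way, without Gm and Rik symbols. Slc13a1, Acsl1, Gpi1, Cebpa, Apoa2, Apob and Cd3e, where outside it, were named after their values were seen, to complete a count. A few genes that the rule names are not reported here. Promoters were the RefSeq windows of GRCm38.p6, matched by symbol for 9349 of the tested genes.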

Additional observations from a re-analysis of the deposited data

Results flagged for a closer look

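For 38 genes the I/R difference in the knockout departed from that in wild type in limma's test of the difference itself (adjusted p under 0.05). Values are the knockout difference minus the wild-type difference in log2(FPKM + 1).

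Among keratins, epithelial surface and junction genes the values were Sprr2f -2.24, Krt18 -1.87, Krt20 -1.68, Krt8 -0.99, Cldn4 -1.51 and Steap1 -1.11. Among injury and secreted genes they were Havcr1 -1.50, Clu -1.48, Gdf15 -1.45, Spp1 -1.19, Lgals3 -1.16, Anxa3 -1.30, Tnfrsf12a -1.41, Ccl20 -1.49 and F3 -1.08. For genes of amino acid synthesis, transcription and the cell cycle they were Phgdh -1.49, Asns -0.99, Myc -1.28, Hmga1 -1.37, Cdc20 -1.21, Tcf19 -1.07 and Nfkbiz -0.83. All of these genes rose in the knockout too. In the 4 genes with lower values that were not called in the knockout they were Il34 -1.28, Plk2 -1.12, Gm43305 -1.12 and Ppp1r14b -0.91.

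Higher values were found for Egf 1.92, Pvalb 1.67, S100g 1.57 and Galnt11 0.83, which fell in the knockout, and for Abca13 1.57, Slc26a4 1.35, Atp4a 1.30 and Gm15860 1.21, which were not called there. The other two genes rose in the knockout, Cd8a with 1.98 and Gm11702 with 2.35. Gm11702 was at 0 in both knockout libraries without I/R and at 6.57 and 6.51 FPKM after it, but at 8.3 and 6.27 FPKM in wild type without I/R. The T-cell receptor gene Cd3e stayed between 0.0505 and 0.686 FPKM in the 8 libraries.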

How the results depend on the processing

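No named gene called in the main fit or in an alternative changed sign there, but the balance of calls did change: lower calls outnumbered higher ones in the main fit, and higher calls were 76.3% with equal sums, 52.96% with the knockout libraries alone, 51.62% without the filter, and 52.34%, 55.1% and 65.18% without knockout replicate 1, knockout I/R replicate 1 and knockout I/R replicate 2. Among 326 named genes, 25 with equal sums, 21 without knockout replicate 1 and 16 without knockout replicate 2 changed sign without being called in either fit. Of 13304 genes, 2748 were called for I/R in the knockout. This count was 1790 without the filter on low values, 1556 with the 4 knockout libraries alone, and 583 (without knockout I/R replicate 2) to 3305 (without knockout replicate 2) when 1 library was left out. With equal sums 2904 were called, 2216 higher and 688 lower. The 38 genes that differed from wild type became 14 with a pseudocount of 0.1, 67 with equal sums and 175 with limma-voom, and ranged from 0 to 206 when 1 library was left out.

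Over genes, the difference between replicates 1 and 2 in the knockout correlated by 0.046 with that in the knockout after I/R. The same correlation was 0.0266 between the wild-type groups. With 1 such difference per group, these values cannot settle whether replicate numbers pair the samples. With the replicate number as a block, limma called 2146 genes for I/R and 0 for the difference from wild type, where 2181 had an unadjusted p under 0.05. With 2 libraries per group, dropping 1 leaves a lone sample that is assumed to vary like the other groups, so these counts also reflect fewer samples. The cause of the other shifts was not tested. Depth limits genes near the 3-read level, such as Sprr2f and Gm11702.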
